A study of Homo sapiens with 12 samples.

Results

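The genes described here are 10 transcription factor genes of the AP-1 group and its close neighbours: FOS, FOSB, FOSL1, FOSL2, JUN, JUNB, JUND, BATF3, MAFF and EGR1. They were taken by symbol from 4 comparison tables that the authors made with DESeq2, and all 10 had a row and an adjusted p-value in every table, out of 20477 genes listed in all 4. The cells are SUM159, an established triple-negative breast cancer line, grown with a control hairpin (shCTRL, a scrambled sequence) or a hairpin against the transcription factor gene E4F1 (shE4F1), and left untreated or given gemcitabine, a deoxycytidine analogue that stalls DNA synthesis. The 4 groups are shCTRL untreated, shCTRL with 140 nM gemcitabine for 24 h, shE4F1 untreated, and shE4F1 with the same dose and time, each with 3 mRNA libraries. A single hairpin against E4F1 is named, and nothing says whether the 3 libraries of a group were separate cultures, so a p-value here reflects library-to-library spread, possibly of technical origin.

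AP-1 is a dimer of basic leucine zipper (bZIP) proteins. JUN family proteins pair with each other or with FOS family proteins, and the dimers bind a short palindromic DNA element, while FOS proteins need a partner. BATF3 is a small bZIP protein that pairs with JUN proteins, and MAFF is a small MAF protein that lacks an activation domain and pairs with other bZIP proteins of the CNC and BACH types. EGR1 is a zinc finger factor and no bZIP protein. Like FOS, FOSB, JUN and JUNB it is an immediate early gene, switched on within minutes of a stimulus. For EGR1 and FOS, MAP kinase signalling acts through the factors SRF, ELK and CREB. JUND and FOSL2 are more steadily expressed, and FOSL1 is often abundant in mesenchymal breast cancer lines.

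The promoter sequences are shown as background, since some members are known to be driven through cyclic AMP response elements (CRE) and serum response elements. Whether these elements bear on any change described below was not tested. RefSeq's promoter table (GRCh38.p14) held 8 of the 10 members, without BATF3 and FOSL1. The 250 bases before each start were searched on both strands for the AP-1 element TGANTCA, the full CRE TGACGTCA, its core TGACGT (which the full CRE contains) and the CArG box, the core of serum response elements. Within these 250 bases EGR1 was the only 1 of the 8 with a CArG box, and it held a pair of them between a pair of CRE cores. Sites farther upstream were not searched, so a gene without a match here may still carry the element. Capitals mark every match in the 250 bases before its start, chr5:138465229-138465478, plus strand.
EGR1: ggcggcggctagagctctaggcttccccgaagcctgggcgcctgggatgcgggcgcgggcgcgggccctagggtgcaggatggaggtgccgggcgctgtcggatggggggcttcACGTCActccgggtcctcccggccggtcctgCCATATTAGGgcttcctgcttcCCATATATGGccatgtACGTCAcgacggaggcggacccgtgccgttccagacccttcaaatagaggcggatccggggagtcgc

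The CRE core was found in 6 of the 8 members, and the next lines show 30 bases around it in the other five, with the core or full CRE in capitals. They lie at chr14:75278752-75278781 for FOS, chr19:45467924-45467953 for FOSB, chr22:38201928-38201957 for MAFF, chr2:28392780-28392809 for FOSL2 (all on the plus strand) and chr19:18281805-18281834 for JUND (minus strand).
FOS: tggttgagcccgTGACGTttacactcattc
FOSB: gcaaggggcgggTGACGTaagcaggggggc
MAFF: cggccgggtcggTGACGTCAccgcatgact
FOSL2: ggagtctggggtTGACGTgagtgaatccac
JUND: cggccgcccccaTGACGTCAacccacaagg
Counting back from the start as -1, the core lay at positions -64 to -59 in FOS and -60 to -55 in FOSB. JUND had a further core nearer its start, at -87 to -82. MAFF and JUND, 2 of the 8, held the full CRE. Of all 34943 promoter windows of the same length, 7.09% held the core, 1.63% the full CRE, 1.16% a CArG box and 6.59% the AP-1 element. No window of the 8 held the AP-1 element in these letters, and JUN and JUNB held none of the elements searched. Several of the 8, MAFF, FOS, FOSL2 and JUN among them, also have a GENCODE gene start upstream of the RefSeq start, so other windows could be drawn for them. The matches shown for MAFF and FOSL2 lie inside the GENCODE gene, after its start. A match is a stretch of letters and was not tested for binding.

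**Figure D1:**
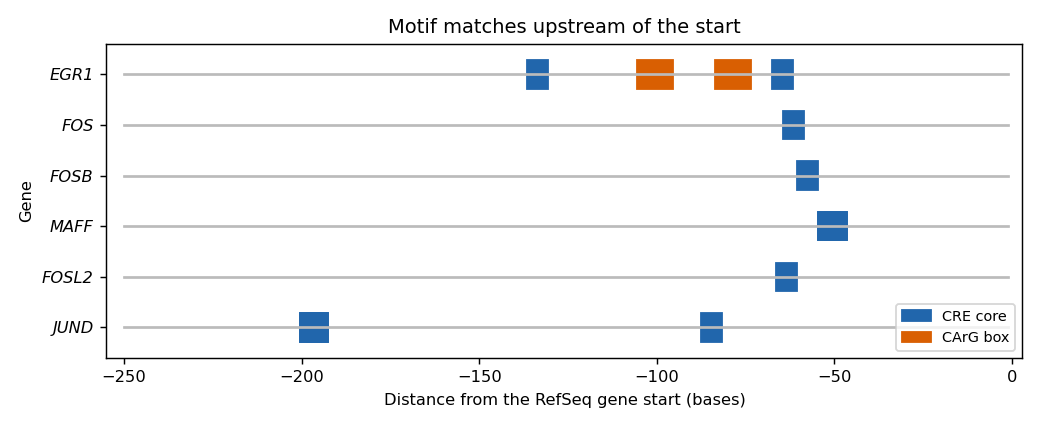
Matches to the CRE core (blue, wider where the full CRE is present) and the CArG box (orange) in the 250 bases before the RefSeq start of the 6 genes with any match; the horizontal axis is the distance from the start in bases. EGR1 carries a pair of CArG boxes, and FOS, FOSB, FOSL2 and MAFF each carry 1 CRE core between positions -66 and -47.

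Values below are log2 changes ± the standard error (SE) from the authors' DESeq2 fits, and a gene is said to rise or fall where the Benjamini-Hochberg adjusted p is under 0.05. Levels given as times another group are these log2 changes turned into ratios, and the fit may have pulled them towards 1. Values per library, and so depth and overlap between single libraries, were not analysed here, because the 12 columns of the count table carry names that match no label. Bulk RNA cannot tell fewer expressing cells from less RNA per cell. E4F1 itself stood at 0.503 times the shCTRL level untreated and 0.532 times under gemcitabine in the authors' deposited tables. VIM had a mean normalized count of 53240 to 70720 over the 4 tables and ESR1 4.95 to 13.1, while ERBB2 (2496 to 2833) and KRT8 (2558 to 2748) were well detected and CDH1 was at 5.21 to 9.23. Among markers of other cells, the leukocyte gene PTPRC had means of 42.6 to 144 and moved with the groups (-2.21 ± 0.40 with the knockdown untreated and -3.00 ± 0.27 under gemcitabine, and higher with the drug in shCTRL cells, adjusted p = 2.43e-05, in the authors' deposited tables), and the endothelial gene PECAM1 had means of 115 to 197 and rose by 1.40 ± 0.29 and 1.17 ± 0.20 in the same tables. CD14, VWF and TEK had means of at most 12.7, and the part of any other cell type in the results was not tested.

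Gemcitabine raised 5 of the 10 genes in shCTRL cells, and none of these 10 fell. JUN, EGR1, FOS, FOSB and MAFF rose between 1.27 and 1.68 (log2), while FOSL1, FOSL2, JUNB, JUND and BATF3 did not pass the test. Of all genes tested with the drug, 14.5% rose and 13.5% fell. The members' median was 0.86, beside -0.02 over all genes tested. At an unadjusted p under 0.05 there were 6 members higher and 1 lower in the DESeq2 table. The share of all genes at an unadjusted p under 0.05 was not computed, here or for the comparisons below. Such counts therefore have no background to stand beside.

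The knockdown gave a different pattern in each condition. Without drug FOSB rose and JUND, BATF3 and MAFF fell (median of the 10 members -0.27, of all genes tested -0.01), where 17.5% of all genes tested rose and 19.3% fell. Under gemcitabine FOS, JUN, BATF3, MAFF and EGR1 fell and none of the 10 rose (median -0.45, all genes 0.00), where 20.3% of all genes rose and 20.8% fell. No member was higher under gemcitabine at an unadjusted p under 0.05 in that DESeq2 table either. BATF3 and MAFF were the members that fell in both conditions. These 2 knockdown tables share no library. The shCTRL gemcitabine libraries, however, enter both the drug table and the knockdown table under gemcitabine, with opposite sign, so those values stand side by side and are not independent of each other.

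The difference between the knockdown effects, under gemcitabine minus untreated, was tested from the 2 deposited tables with a two-sided normal test, adjusted over all 20923 genes. It was negative for FOS, FOSB, JUN and EGR1 and positive for JUND, 5 of 10 members, where 2.63% of all genes were called negative and 2.81% positive. The members were chosen with earlier results of these data known, so setting their count beside these shares is no test of the group. The difference was also obtained from the other 3 tables, a route whose SE is larger by construction because the shCTRL untreated libraries enter repeatedly. No member was called by it, and the share of all genes called by it was not computed. The values for these 5 genes kept their direction, but had little room to turn. The main value minus this one was -0.45 (log2) for EGR1 and -0.13 for FOS, and smaller in size for FOSB, JUN and JUND.

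**Figure D2:**
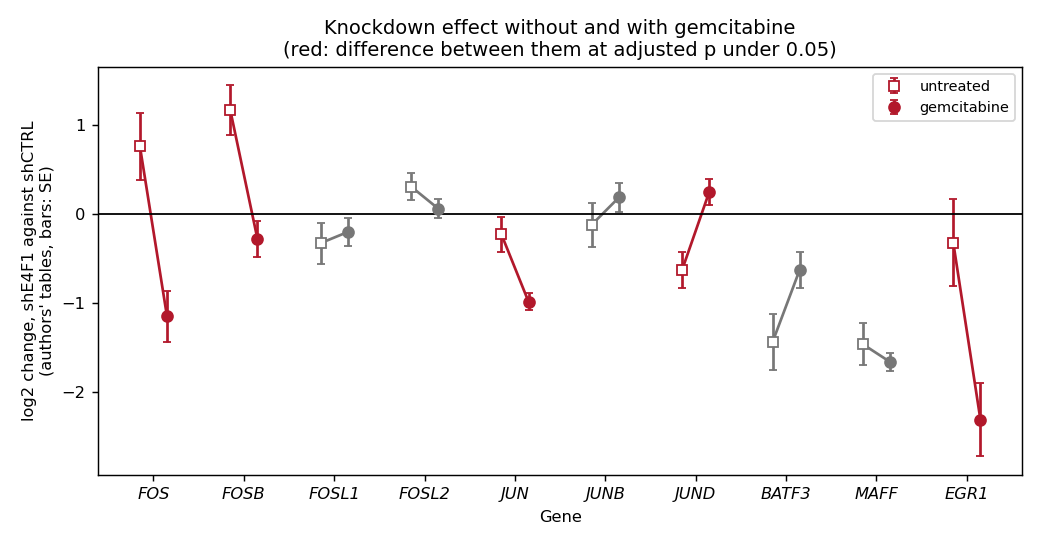
The log2 change of each gene in shE4F1 against shCTRL cells, without drug (open squares) and under gemcitabine (filled circles), with SE bars; red marks genes whose difference between conditions had an adjusted p under 0.05. FOS, FOSB, JUN and EGR1 slope down and JUND slopes up, while MAFF sits low in both conditions.

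In cells with both changes, shE4F1 under gemcitabine, FOSB and JUN were higher than in untreated shCTRL cells and no member was called lower (median 0.19, all genes -0.01), where 15.8% of all genes rose and 16.3% fell, and at an unadjusted p under 0.05 the DESeq2 table also gave 2 higher and 0 lower. The gemcitabine effect within shE4F1 cells, taken as that table minus the untreated knockdown table, gave no call for the 10 members with the normal test. Its SE is too large, since the shared shCTRL untreated libraries are counted in both, and only 0.925% of all genes were called higher and 0.185% lower. At an unadjusted p under 0.05, JUN, MAFF and BATF3 were higher and none of the 10 was lower. No share of all genes at that threshold was computed for either comparison here.

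**Figure D3:**
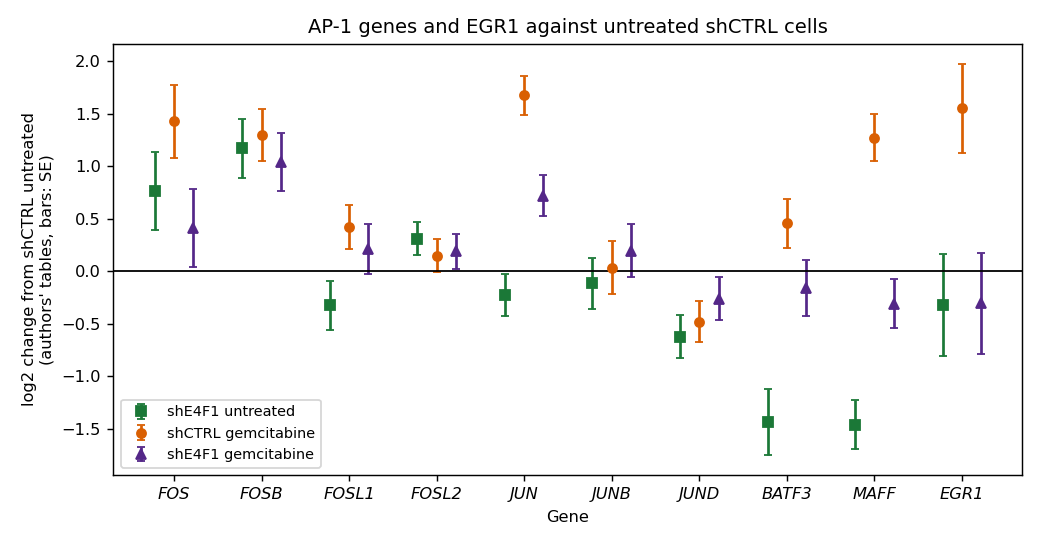
The log2 change of each gene from untreated shCTRL cells (the line at 0) in shE4F1 untreated (green squares), shCTRL gemcitabine (orange circles) and shE4F1 gemcitabine (purple triangles), with SE bars. For JUN, MAFF and EGR1 the orange circle stands well above the purple triangle; for FOSB all 3 marks lie between 1.04 and 1.30.

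FOS (chromosome 14, 75278774 to 75282230, plus strand, GENCODE 29 on GRCh38) encodes the founding FOS protein, and its mRNA is short-lived. It was a low transcript here, with mean normalized counts of 44.9 to 96.0 over the 4 deposited tables. Gemcitabine raised it by 1.43 ± 0.34 in shCTRL cells (adjusted p = 0.000321), which is 2.69 times the untreated level, in the authors' deposited table. Its knockdown effect was 0.77 ± 0.37 untreated (adjusted p = 0.0976) and -1.15 ± 0.29 under gemcitabine (adjusted p = 0.000295) in the authors' deposited tables. Computed instead as the both-changes table minus the drug table, the last value was -1.01 with adjusted p = 0.172. The difference between conditions was -1.91 ± 0.47 (95% interval -2.84 to -0.99, adjusted p = 0.00273). The order of its levels was shCTRL gemcitabine, shE4F1 untreated, shE4F1 gemcitabine and shCTRL untreated, at 2.69, 1.70, 1.33 and 1 times the last group. The tests did not tell apart any of the groups below shCTRL gemcitabine, and that group was not tested against shE4F1 untreated.

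FOSB (chromosome 19, 45467995 to 45475179, plus strand) encodes a FOS protein best known for its truncated form that builds up under repeated stimulation. It rose above untreated shCTRL cells in each of the other 3 groups. The authors' deposited tables gave 1.17 ± 0.28 for shE4F1 untreated (adjusted p = 0.000174), 1.30 ± 0.25 for shCTRL gemcitabine (adjusted p = 2.08e-06) and 1.04 ± 0.27 for shE4F1 gemcitabine (adjusted p = 0.000930). These are 2.25, 2.46 and 2.05 times the untreated shCTRL level, all sharing those control libraries. Between the hairpins under gemcitabine the deposited table gave -0.27 ± 0.20 (adjusted p = 0.306, 95% interval -0.67 to 0.12). The knockdown effect differed between conditions by -1.44 ± 0.35 (adjusted p = 0.00180). FOSB overlaps ERCC1 on the other strand and the strand setting of the counting is not given; ERCC1 itself was at -0.14 ± 0.14 and -0.19 ± 0.14 for the knockdown untreated and for the drug in the authors' deposited tables, neither passing the test.

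FOSL1 and FOSL2 encode FRA1 and FRA2, FOS proteins without the strong activation domain of FOS. Neither gene passed the test in any comparison. FOSL1 (chromosome 11, 65892049 to 65900573, minus strand; means of 1162 to 1890) was at -0.32 ± 0.23 for the knockdown untreated, -0.20 ± 0.16 for the knockdown under gemcitabine and 0.42 ± 0.21 for the drug in shCTRL cells (adjusted p = 0.118) in the authors' deposited tables. The last has a 95% interval of 0.02 to 0.83. FOSL2 (chromosome 2, 28392448 to 28417312, plus strand) had the highest counts of the 10, with means of 6439 to 7431. For the knockdown under gemcitabine JUN and MAFF had smaller SEs (0.099 and 0.104, beside 0.107 for FOSL2). In the other deposited comparisons FOSL2 had the smallest SE of the 10. Its values in the authors' deposited tables were 0.31 ± 0.16 for the knockdown untreated (adjusted p = 0.105), 0.06 ± 0.11 under gemcitabine and 0.15 ± 0.16 for the drug. The knockdown under gemcitabine had a 95% interval of -0.15 to 0.28 for FOSL2, the narrowest among the 10 members' values that did not pass the test. The levels of both genes in the 4 groups were not told apart. FOSL2 shares its locus with the antisense RNA FLJ31356, which had means of 21.1 to 37.2.

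JUN (chromosome 1, 58780788 to 58784327, minus strand) encodes c-Jun, the AP-1 subunit with the strongest activating effect. Gemcitabine raised it in shCTRL cells by 1.68 ± 0.19 (adjusted p = 1.70e-17), which is 3.20 times the untreated level, in the authors' deposited table. Without drug the hairpins gave -0.22 ± 0.20 (adjusted p = 0.410), and under gemcitabine -0.98 ± 0.10 (adjusted p = 8.75e-22), a level of 0.507 times that of shCTRL, in the authors' deposited tables. The knockdown effects differed by -0.76 ± 0.22 (adjusted p = 0.0172). JUN in shE4F1 cells under gemcitabine was still 0.72 ± 0.19 above untreated shCTRL cells (adjusted p = 0.00128) in the authors' deposited table. Within shE4F1 cells the drug effect was 0.94 ± 0.28 (95% interval 0.40 to 1.49, adjusted p = 0.0563). This missed the threshold, and passed it when only genes with a mean of at least 50 were adjusted for (adjusted p = 0.0367). The order of levels was shCTRL gemcitabine at 3.20, shE4F1 gemcitabine at 1.65, shCTRL untreated at 1 and shE4F1 untreated at 0.856, and of these neighbours only the untreated pair was not told apart.

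JUNB (chromosome 19, 12791496 to 12793315, plus strand; means of 544 to 710), a weaker activator that can hold c-Jun back, was between -0.12 and 0.20 in all 4 deposited tables with no adjusted p under 0.38. With the drug in shCTRL cells JUNB was at 0.03 ± 0.25 in the authors' deposited table, with a 95% interval of -0.46 to 0.53. JUND (chromosome 19, 18279760 to 18281622, minus strand; means of 423 to 506), the JUN protein of resting cells, fell with the knockdown in untreated cells by 0.62 ± 0.20 (adjusted p = 0.00786) and was at 0.25 ± 0.15 under gemcitabine (adjusted p = 0.163) in the authors' deposited tables. The difference of 0.88 ± 0.25 (adjusted p = 0.0138) was the only positive one called among the members. Gemcitabine in shCTRL cells gave JUND -0.48 ± 0.20 in the authors' deposited table, the only drug value below 0 among the 10. Its adjusted p was 0.0512, and 0.0398 when only genes with a mean of at least 50 were adjusted for. JUND was highest in untreated shCTRL cells, followed by shE4F1 gemcitabine at 0.835, shCTRL gemcitabine at 0.717 and shE4F1 untreated at 0.650 times that level. Of the differences from untreated shCTRL cells, only that of shE4F1 untreated passed the test. JUNB overlaps HOOK2 on the other strand.

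MAFF (chromosome 22, 38200767 to 38216511, plus strand) fell with the knockdown in both conditions. It fell by 1.46 ± 0.24 untreated (adjusted p = 1.25e-08) and by 1.66 ± 0.10 under gemcitabine (adjusted p = 6.74e-55) in the authors' deposited tables, to 0.364 and 0.317 times the shCTRL level. The difference between these effects was -0.20 ± 0.26 (95% interval -0.71 to 0.31, adjusted p = 0.811). Gemcitabine raised MAFF by 1.27 ± 0.23 in shCTRL cells (adjusted p = 4.01e-07) in the authors' deposited table, and the value within shE4F1 cells was 1.15 ± 0.33 (adjusted p = 0.0502). That value passed the test when only genes with a mean of at least 50 were adjusted for (adjusted p = 0.0326). In shE4F1 cells under the drug, MAFF stood at 0.806 times the untreated shCTRL level, a difference of -0.31 ± 0.23 (adjusted p = 0.337) in the authors' deposited table. PLA2G6, which overlaps MAFF on the other strand with means of 140 to 214, was also lower with the knockdown (-1.02 ± 0.21 and -0.82 ± 0.18 in the authors' deposited tables) and was at -0.06 ± 0.19 with the drug. Whether reads were shared between PLA2G6 and MAFF was not tested.

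BATF3 (chromosome 1, 212686418 to 212699985, minus strand), known for its role in dendritic cells, had means of 59.7 to 124. It fell with the knockdown by 1.44 ± 0.32 untreated (adjusted p = 4.11e-05) and by 0.62 ± 0.21 under gemcitabine (adjusted p = 0.00744) in the authors' deposited tables. Computed as the both-changes table minus the drug table, the value under gemcitabine was again -0.62, with adjusted p = 0.262. The difference between the effects was 0.81 ± 0.38 (95% interval 0.07 to 1.55, adjusted p = 0.230). The drug gave 0.46 ± 0.24 in shCTRL cells (adjusted p = 0.144) in the authors' deposited table and 1.27 ± 0.41 within shE4F1 cells (adjusted p = 0.122). BATF3 in shE4F1 cells under gemcitabine stood at 0.893 times the untreated shCTRL level (-0.16 ± 0.27, adjusted p = 0.702) in the authors' deposited table.

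EGR1 (chromosome 5, 138465490 to 138469315, plus strand) fell with the knockdown under gemcitabine. The authors' deposited table put it at -2.31 ± 0.41 (adjusted p = 1.44e-07), 0.202 times the shCTRL level. Without drug the same contrast gave -0.32 ± 0.49 (adjusted p = 0.667), and gemcitabine raised EGR1 by 1.55 ± 0.42 in shCTRL cells (adjusted p = 0.00181), in the authors' deposited tables. The knockdown effects differed by -1.98 ± 0.64 (95% interval -3.24 to -0.73, adjusted p = 0.0381). Within shE4F1 cells the drug effect was 0.02 ± 0.68 (95% interval -1.33 to 1.36), and -0.43 when taken from the other tables, too wide to say that the drug left EGR1 unmoved there. The groups other than shCTRL gemcitabine were untreated shCTRL, shE4F1 gemcitabine at 0.809 and shE4F1 untreated at 0.800 times it, and these were not told apart. EGR1 had the largest SE of the members in all 4 tables. Its deposited values also did not add up: the knockdown under gemcitabine plus the drug effect differed from the direct table by -0.45 (log2), where 93.4% of 20913 genes came within 0.1. For FOS the same gap was -0.13, and for the others it was at most 0.07 in size.

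The pathway around these genes was read from 5 lists. Their counts stand beside these shares over all genes tested. With the drug in shCTRL cells 14.5% rose and 13.5% fell. The knockdown raised 17.5% and lowered 19.3% untreated, and raised 20.3% and lowered 20.8% under gemcitabine. No list was tested against these shares. The other immediate early genes followed the members' directions in part. With gemcitabine in shCTRL cells 10 of 23 tested rose and 3 fell (median 0.50), led by EGR2, a zinc finger relative of EGR1, at 3.44 ± 0.36, BTG2 at 1.35 ± 0.22, and the zinc finger genes KLF10 at 1.17 ± 0.15 and KLF6 at 0.92 ± 0.17 in the authors' deposited table. With the knockdown under gemcitabine 11 of 24 fell and 3 rose (median -0.47). PPP1R15A, a phosphatase subunit of the stress response, fell by 1.27 ± 0.10, IER3 by 1.27 ± 0.12 and the small GTPase gene RHOB by 1.09 ± 0.12, while BTG2 rose by 1.15 ± 0.13, in the authors' deposited table. Without drug 7 of 21 fell and 3 rose (median 0.02). There BTG2 was at 2.30 ± 0.20, PPP1R15A at -1.60 ± 0.41, IER3 at -1.35 ± 0.19 and KLF4 at -1.23 ± 0.23 in the authors' deposited table.

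Other bZIP genes that can pair or compete with AP-1 went both ways. ATF3, a stress-induced partner of JUN, rose by 2.04 ± 0.26 with the drug in shCTRL cells and was at -2.43 ± 0.43 with the knockdown untreated and -3.24 ± 0.17 under gemcitabine in the authors' deposited tables. JDP2, a repressor of AP-1 sites, fell by 0.94 ± 0.13 with the drug and rose by 1.13 ± 0.10 with the knockdown under gemcitabine in the authors' deposited tables. For ATF3 and JDP2 alike, the drug value and the knockdown value under gemcitabine share the shCTRL gemcitabine libraries, with opposite sign. The same holds for every gene of the lists given in both comparisons. MAFK, a small MAF gene like MAFF, fell by 1.01 ± 0.13 with the knockdown under gemcitabine, and the partner gene BACH2 rose by 1.22 ± 0.26 there and by 1.46 ± 0.31 untreated, in the authors' deposited tables. NFE2L1, a CNC factor, fell by 1.09 ± 0.17 and NFE2L3 rose by 0.87 ± 0.24 with the knockdown untreated in the authors' deposited table. BACH1 and NFE2L3 rose with the drug by 0.62 ± 0.16 and 0.61 ± 0.23 in the authors' deposited table. Of 16 tested, 5 rose and 3 fell with the drug (median 0.30), 5 and 3 with the knockdown untreated (median 0.20), and 5 and 4 under gemcitabine (median 0.21).

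Transcripts of the upstream kinases and SRF-class factors changed by at most 0.75 (log2) in the 3 comparisons given here. Of 19, gemcitabine in shCTRL cells raised 1 and lowered 3 (median -0.10), the knockdown raised 3 and lowered 2 untreated (median 0.00), and under gemcitabine it raised 9 and lowered 4 (median 0.24). Of all genes tested, 14.5% rose and 13.5% fell with the drug, 17.5% and 19.3% with the knockdown untreated, and 20.3% and 20.8% under gemcitabine. Under gemcitabine ELK3, an SRF partner that can repress, rose by 0.75 ± 0.10 and the JNK1 gene MAPK8 by 0.52 ± 0.10, while CREB1, which binds CRE sites, fell by 0.66 ± 0.10 and SRF by 0.58 ± 0.10, with shE4F1 in the authors' deposited table. Untreated, CREB1 fell by 0.54 ± 0.15 and the p38 gene MAPK14 by 0.47 ± 0.15, while the JNK kinase gene MAP2K4 rose by 0.51 ± 0.14 and ELK3 by 0.43 ± 0.14, in the authors' deposited table. With the drug ELK3 fell by 0.59 ± 0.14, MAPK14 by 0.52 ± 0.15 and MEF2D by 0.52 ± 0.15, and the kinase gene RPS6KA5 rose by 0.51 ± 0.21, in the authors' deposited table. Kinase activity was not measured.

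Among partners and factors that control AP-1 protein turnover, FBXW7, a ubiquitin ligase subunit that marks c-Jun for degradation, rose with the knockdown in both conditions, by 1.13 ± 0.16 untreated and 1.15 ± 0.12 under gemcitabine in the authors' deposited tables. NAB1, a co-repressor of EGR proteins, rose by 0.58 ± 0.14 and 0.46 ± 0.10 in the same comparisons of the authors' deposited tables. RFWD2 (COP1), another ligase of c-Jun, fell by 0.48 ± 0.14 with the knockdown untreated and by 0.87 ± 0.14 with gemcitabine in shCTRL cells in the authors' deposited tables. TRIB1, a scaffold of COP1, fell by 0.64 ± 0.16 with the drug and rose by 0.76 ± 0.12 with the knockdown under gemcitabine in the authors' deposited tables. SKIL rose by 0.35 ± 0.10 in the latter and SPOP fell by 0.45 ± 0.15 with the knockdown untreated in the authors' deposited tables. Of 9 tested, 0 rose and 2 fell with the drug (median -0.21), 2 and 3 with the knockdown untreated (median 0.21), and 4 and 1 under gemcitabine (median 0.26).

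Genes known from other systems as AP-1 targets held some of the largest changes and did not share a direction. Gemcitabine in shCTRL cells raised 7 of 22 and lowered 5 (median 0.19). The chemokine gene CXCL8 rose by 4.94 ± 0.38, the cytokine gene IL6 by 4.12 ± 0.22 and the EGF receptor ligand gene HBEGF by 2.58 ± 0.17 in the authors' deposited table. The knockdown under gemcitabine lowered 9 of 23 and raised 7 (median 0.10), with CXCL8 at -3.31 ± 0.33, the ligand genes AREG at -3.09 ± 0.16 and HBEGF at -2.99 ± 0.14, and the stromelysin gene MMP3 at 2.72 ± 0.16 in the authors' deposited table. Untreated it raised 7 of 20 and lowered 7 (median 0.03), with MMP3 at 3.19 ± 0.19, AREG at -2.42 ± 0.50 and IL6 at -1.53 ± 0.27 in the authors' deposited table. Within shE4F1 cells the drug effect was called for 4 of 21 of these genes, all higher: CXCL8 at 3.67 ± 0.35, IL6 at 3.09 ± 0.35, HBEGF at 1.06 ± 0.30 and PLAU at 1.02 ± 0.21. Of all genes, 0.925% were called higher there and 0.185% lower.

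**Figure D4:**
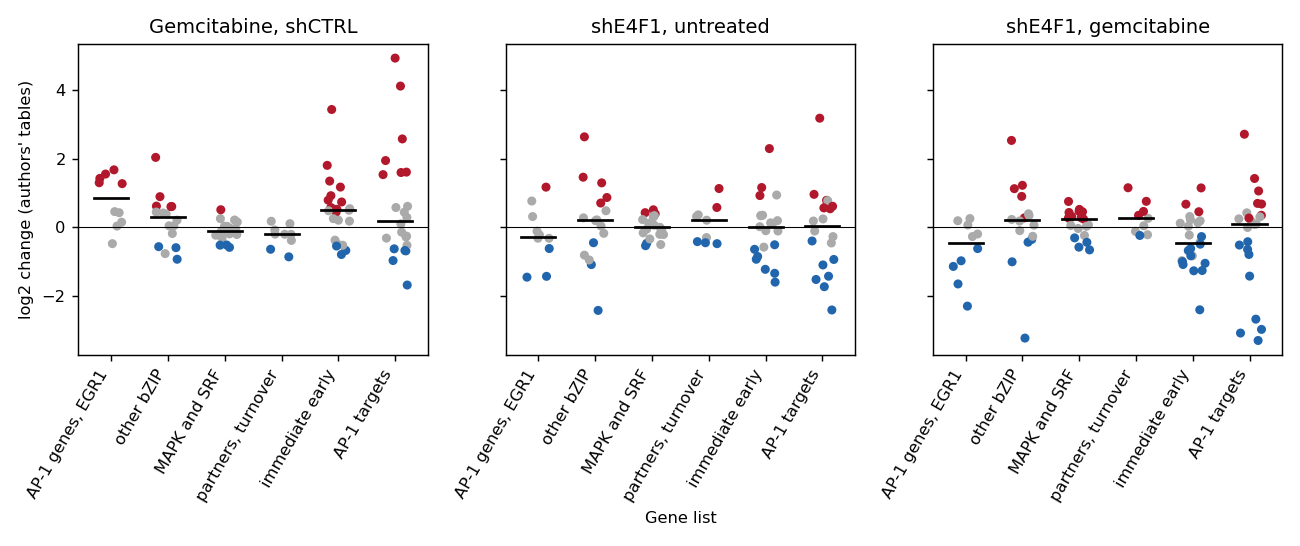
The log2 change of each tested gene of the AP-1 genes with EGR1 and of 5 related lists, for gemcitabine in shCTRL cells and for shE4F1 against shCTRL cells untreated and under gemcitabine; red rose, blue fell, grey did not pass the test, and black bars are medians. The median of the 10 genes is 0.86 with the drug and -0.45 with the knockdown under it, while the upstream MAP kinase and SRF list stays between -0.10 and 0.24.

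The genes closest to EGR1 in their log2 changes over 3 tables (both knockdown tables and the drug in shCTRL cells), among 12453 with a mean of at least 50, were HRAT17 at a distance of 0.38, RP3-332B22.1 at 0.41 and CTD-2078B5.2 at 0.49 (log2). HRAT17 was at -0.52, -2.20 and 1.86 for the knockdown untreated, the knockdown under gemcitabine and the drug. For FOSL1, whose changes were small, the closest were DPM2, ZMIZ2 and DNAL4, at distances of 0.05 to 0.07.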

How the data were processed

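RNA of 12 SUM159 libraries (4 groups of 3) was turned into stranded mRNA libraries and sequenced from 1 end over 50 bases, per the labels and the series' design text. The submitters' processing notes list, as tools of the authors, DESeq2 1.14.1 (with R 3.4.0), HTSeq 0.9.0, TopHat2 2.1.1 and Bowtie2 2.2.9, with the build GRCh38.p7. For the annotation, strand setting, filters and model formula, the sources used here give nothing. The authors' 4 deposited tables hold, per the file headers, a mean normalized count (a signal: counts over size factors), a log2 fold change with its SE, the Wald score, and the p-value and adjusted p-value, with no sample level values. The SEs of low genes level off in these tables, as they do where fold changes are moderated towards 0. Ratios and differences were taken from the deposited values without any correction for this, and its effect on them was not tested. A count table's 12 columns match no label and were not used, so the depth per library is unknown here and precision is given by the SE.

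The gemcitabine effect in shE4F1 cells and the difference between knockdown effects were computed as differences of deposited tables, with SEs from summed variances, a two-sided normal test and Benjamini-Hochberg adjustment over 21080 and 20923 genes (Python 3.11.15, numpy 2.4.6, pandas 2.3.3, scipy 1.17.1, matplotlib 3.10.9). The computation of the difference between knockdown effects was run on simulated data with independent normal errors of the deposited SEs. Such data meet the assumptions of the test, so they cannot show whether the assumptions hold here. The drug effect within shE4F1 cells was not simulated. Intervals are 95% and assume normal errors. A missing adjusted p stayed missing. Alternatives were a threshold of 0.01, no filter on low counts, a mean of at least 50, centring on the median, and other routes through the tables. The 10 members and the lists were chosen with earlier results of these data known. From each of the 5 lists, the text names up to 4 called genes with the largest log2 change and a mean of at least 50, in each comparison it describes by gene; a few genes that this rule names are not reported here. Older symbols (RFWD2, CTGF) are those of the tables.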

Additional observations from a re-analysis of the deposited data

Results flagged for a closer look

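These are the named genes whose knockdown effect differed between conditions, as tested by the difference itself (under gemcitabine minus untreated, log2, normal test with Benjamini-Hochberg adjustment over all genes). Among the members the differences were -1.98 for EGR1, -1.91 for FOS, -1.44 for FOSB, -0.76 for JUN and 0.88 for JUND.

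Of all genes, 2.63% were called negative and 2.81% positive for this difference. The members and lists were chosen with earlier results of these data known, so their counts beside these shares are no test. Among other bZIP genes, 2 of 16 were called, JDP2 at 0.93 ± 0.17 and NFE2L1 at 0.99 ± 0.20, both positive. For the other immediate early genes 5 of 22 were called, all negative, among them BTG2 at -1.15 ± 0.24, RHOB at -0.99 ± 0.19, SGK1, a serum-induced kinase gene, at -0.94 ± 0.25 and KLF6 at -0.87 ± 0.20. For the genes known as AP-1 targets 4 of 22 were negative and 2 positive, with CXCL8 at -2.37 ± 0.42 and HBEGF at -1.55 ± 0.25 among the negative ones.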

How the results depend on the processing

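Each of the 60 member values (10 genes in 6 comparisons) was recomputed under the alternatives, giving 278 values, of which 262 kept their direction and side of the threshold, 10 lost a call, 5 gained one and 1 turned its direction. The last was the EGR1 drug effect within shE4F1 cells, not called at 0.02 and not called at -0.43 from the other tables. The cause was not tested. The threshold and filter settings leave the log2 values unchanged, so only centring and the other routes could turn a direction. Removing the filter repeats the main values where all genes were already adjusted for. Many of the 262 agreements were thus fixed in advance. By the other routes alone, 32 values were the same, 7 lost a call and 1 turned. From the other tables, whose SE is larger by construction, members lower with the knockdown under gemcitabine went from 5 to 3, and differences between knockdown effects went from 4 negative and 1 positive to 0 and 0, with values of -1.78 for FOS, -1.43 for FOSB, -0.73 for JUN, -1.54 for EGR1 and 0.84 for JUND. At an adjusted p under 0.01 those differences were 2 negative and 0 positive. Adjusting only genes with a mean of at least 50 gave 1 member lower with gemcitabine in shCTRL cells in place of 0, and 2 higher within shE4F1 cells in place of 0, and centring on the median also gave 2 there. The share of all genes called was not computed under any of these alternatives. No paired analysis was possible because the deposited tables carry no per-library values. For the same reason leaving out a replicate and a second count tool were not run, and no result here is known to hold without any 1 library.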
